A study of Drosophila melanogaster with 6 samples.

Results

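The genes described here encode lipases, the enzymes that cut fatty acids from stored or eaten fat, and the perilipins, proteins that coat the lipid droplets in which fat is stored. Of 9 genes listed by name, 8 had exactly 1 row among the 13035 genes of the deposited table: the lipid droplet lipase brummer (bmm), the perilipins Lsd-1 and Lsd-2, and the lipases CG5966, CG8093, Lip3, Lip4 and magro (mag). Hsl, the fly hormone-sensitive lipase, was not analysed here. RNA was measured by poly(A)-selected RNA-seq in whole male Drosophila melanogaster on day 6 of adult life, in 3 libraries labelled dERR mutant and 3 labelled control. Estrogen-related receptor (ERR) is an orphan nuclear receptor that regulates energy metabolism, and the comparison addresses which adult transcripts differ after its loss.

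Flies of both groups had the genotype yw, hsFLP with a conditional dERR allele over the mutant allele dERR2, so the controls also carried 1 mutant allele. FLP recombinase was under heat shock control and was not limited to a tissue by the labels. Heat of 1 h was given to mutant flies on day 5 and on day 6 AEL (after egg laying) and never to controls, so an effect of early heat and the loss of ERR cannot be told apart. Because the heat came before adult life, direct dependence of adult transcripts on ERR cannot be told from effects of its earlier loss. The sources used here do not give the number of flies per library or say whether libraries came from separate cultures. The p-values therefore measure the spread between these libraries, which may be technical.

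Fat is held as triglyceride inside lipid droplets, mainly in the fat body, the insect counterpart of liver and adipose tissue. Perilipins at the droplet surface control access of lipases. Bmm, the fly relative of mammalian adipose triglyceride lipase, cuts the stored triglyceride, and adipokinetic hormone (AKH) drives a parallel route through its receptor and protein kinase A. Other lipases act outside the droplet, in the gut lumen on dietary fat or as acid lipases of the lysosomal and gastric type.

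In dERR mutant flies both perilipin transcripts and 4 of the 6 measured lipases were lower, while bmm was higher. The largest falls were those of Lsd-1, CG8093 and Lip4, at 3.23-fold, 2.95-fold and 2.85-fold. CG5966, Lsd-2 and mag fell by smaller amounts, and bmm rose 1.46-fold. Lip3 did not pass the test. Thus 1 of the 8 genes rose and 6 fell at an adjusted p of 0.05 (limma on log2 of normalized count + 1, adjusted over all 13035 genes), against 4.73% of all genes called higher, 9.47% called lower and 14.2% called in either direction. The median log2 change of the 8 genes was -0.68, and that of all genes was 0.00. Whole flies were sequenced, so less RNA per cell and fewer cells of a type cannot be told apart in any of these values.

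**Figure D1:**
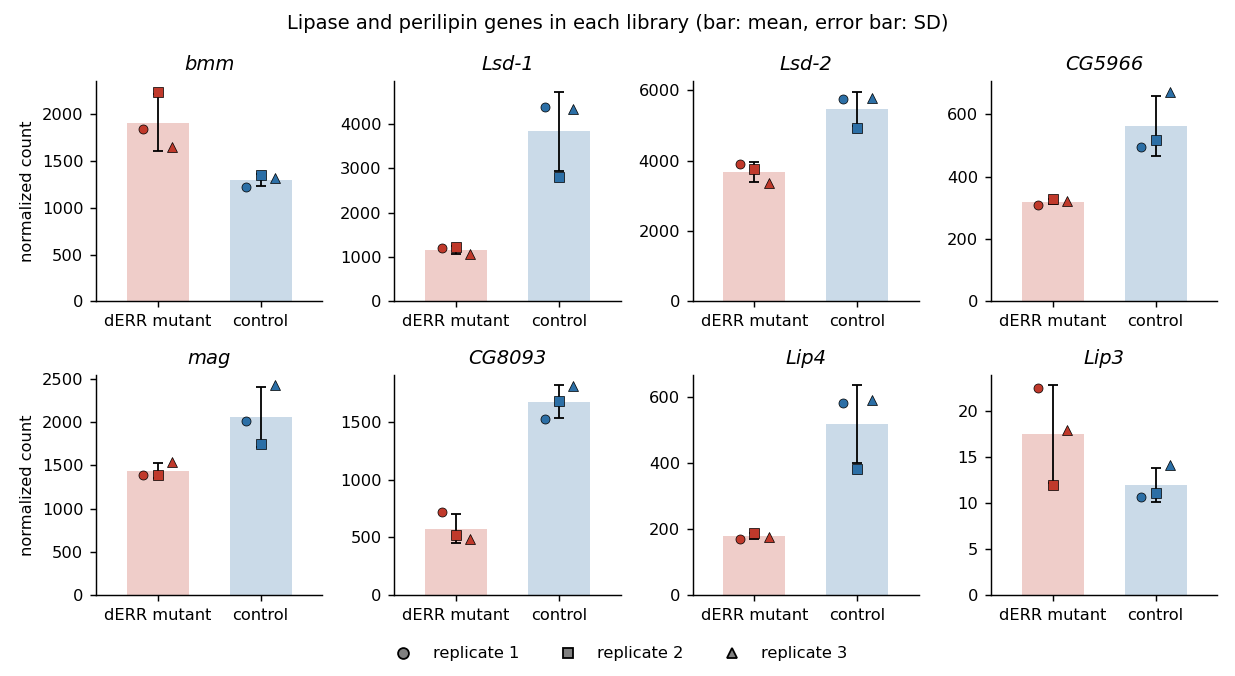
Normalized counts (vertical axes, from 0) of the 8 measured genes in each dERR mutant and control library, with bars for the mean and error bars for the SD (n = 3 each). In bmm all mutant libraries lie above all control libraries, in Lip3 the groups overlap, and in the other 6 genes all mutant libraries lie below.

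Read totals are not given in the table. If the step between values in a column stands for 1 read, the libraries held 13987814 to 16102936 gene-assigned reads each. The targeted gene ERR had 112, 119 and 107 normalized counts in mutant libraries 1, 2 and 3, against 373, 497 and 539 in control libraries 1, 2 and 3, and every mutant value lay below every control value. In the deposited coordinates, taken from gene start to gene end, ERR overlaps CG7979, at 44.9% of its level, by 10 bases. CG7979 fell too, by 1.36 ± 0.12 (log2, SE, adjusted p = 2.38e-05, limma), and its groups did not overlap. The cause of that fall was not tested. Tissue markers of male flies were present: the testis list summed to 24073 to 29134 normalized counts in mutant and 20655 to 24591 in control libraries, and the female list (Yp1, Yp2, Yp3 and Cp15 measured) to 163 to 240 in mutant and 256 to 294 in control libraries. Principal component 1 held 51.8% of the variance of log2 values and separated the groups. Over all genes, 617 were called higher and 1234 lower. That split was 1293 and 992 with scaling to library size, 919 and 1080 with quantile normalization, and 188 and 2278 when ribosomal protein genes set the scale.

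The perilipin Lsd-1, which is phosphorylated by protein kinase A when AKH signals, had 1208, 1229 and 1065 normalized counts in mutant libraries 1, 2 and 3. Its control libraries 1, 2 and 3 had 4376, 2808 and 4333. Control library 2 stood well below the other 2 controls, yet above every mutant library. The means were 1167 ± 89.3 in mutant and 3839 ± 893 in control flies (SD, n = 3 each). On the log2 scale Lsd-1 fell by 1.69 ± 0.15 (SE), with an adjusted p of 2.91e-05 (limma). The gene (FBgn0039114) lies on the plus strand of chromosome arm 3R at 19589578 to 19592388 (dm3, as deposited) and overlaps CG10214, on the other strand and at 6.74% of its level, by 149 bases.

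Lsd-2, the perilipin that promotes storage by shielding droplets from lipases, had 3920, 3778 and 3363 normalized counts in mutant and 5750, 4921 and 5777 in control libraries. Control library 2 was again the lowest control, and the groups did not overlap. The means were 3687 ± 289 in mutant and 5483 ± 487 in control flies (SD, n = 3 each). Lsd-2 (FBgn0030608, X, 14965488 to 14970236, dm3) fell by 0.57 ± 0.09 on the log2 scale (SE, adjusted p = 0.00130, limma). This is a smaller change than that of Lsd-1, and the difference was examined within each library. The ratio of Lsd-1 to Lsd-2 counts was 0.308, 0.325 and 0.317 in mutant libraries, against 0.761, 0.571 and 0.750 in control libraries. All mutant ratios were below all control ratios, and on the log2 scale the mutant mean minus the control mean was -1.12. An exact two-sided permutation test gave p = 0.1, the smallest value that 3 against 3 libraries allow.

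Brummer, the droplet lipase, was the single gene of the set that rose. It had 1842, 2242 and 1649 normalized counts in mutant libraries, against 1221, 1347 and 1317 in control libraries. The mutant libraries were spread more widely than the controls, with library 2 the highest, and the groups did not overlap. Means were 1911 ± 303 in mutant and 1295 ± 65.6 in control flies (SD, n = 3 each). The log2 change of bmm was 0.55 ± 0.10 (SE), with an adjusted p of 0.00450 (limma). The 95% interval of that change ran from 0.32 to 0.78. The gene (FBgn0036449) lies on the minus strand of 3L at 14769595 to 14779512 (dm3), and no other gene of the deposited table overlaps it.

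Because the products of bmm and Lsd-1 both act at the droplet surface and the genes moved in opposite directions, their ratio was taken within each library, a pair chosen after the values were seen. There were 1.53, 1.82 and 1.55 bmm counts per Lsd-1 count in mutant libraries and 0.279, 0.480 and 0.304 in control libraries. The mutant mean was higher than the control mean by 2.24 on the log2 scale, and no test is given, since the choice of the pair fixed the direction. These are ratios of counts, not of levels per length.

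**Figure D2:**
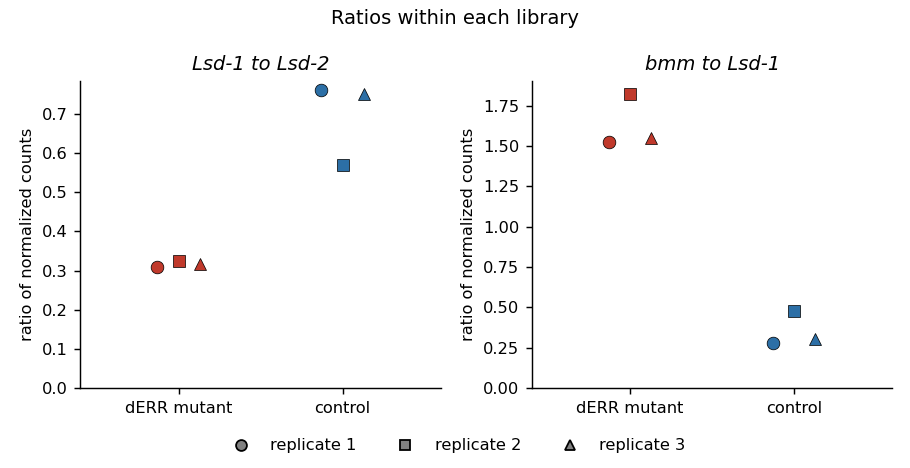
Ratio of normalized counts (vertical axes, from 0) of Lsd-1 to Lsd-2 and of bmm to Lsd-1 in each library, one point per library. The mutant ratios of Lsd-1 to Lsd-2 lie between 0.308 and 0.325, below every control ratio, and those of bmm to Lsd-1 between 1.53 and 1.82, above every control ratio.

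Among the lipases outside the droplet, CG8093 and Lip4 belong to the acid lipase family, named for the lysosomal and gastric enzymes. CG8093 (FBgn0033999, 2R, 11101785 to 11103191, dm3) had 719, 519 and 484 normalized counts in mutant and 1524, 1685 and 1811 in control libraries. Mutant library 1 was the highest of its group and still far below every control library. CG8093 fell by 1.56 ± 0.13 on the log2 scale (SE, adjusted p = 2.36e-05, limma), with means of 574 ± 127 in mutant and 1673 ± 143 in control flies (SD, n = 3 each).

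Lip4 (FBgn0032264, 2L, 10527571 to 10531778, dm3) had 169, 187 and 177 normalized counts in mutant libraries, against 581, 382 and 590 in control libraries. The 3 mutant libraries were close together, while control library 2 was low among the controls, as it was for Lsd-1. Means were 178 ± 8.83 in mutant and 518 ± 117 in control flies (SD, n = 3 each), and Lip4 fell by 1.51 ± 0.15 on the log2 scale (SE, adjusted p = 6.03e-05, limma).

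Magro, an acid lipase secreted into the gut that digests dietary fat and is a known target of the nuclear receptor Hr96 (DHR96), had 1394, 1385 and 1539 normalized counts in mutant and 2011, 1745 and 2426 in control libraries. The groups did not overlap, although mutant library 3 and control library 2 came close to each other. Magro fell by 0.51 ± 0.11 on the log2 scale (SE, adjusted p = 0.00975, limma), with means of 1439 ± 86.3 in mutant and 2061 ± 343 in control flies (SD, n = 3 each). The gene (FBgn0036996, 3L, 20453782 to 20455374, dm3) lies wholly inside CG5195 on the other strand. CG5195 had a level of 28.5% of that of mag and fell by 0.37 ± 0.10 (log2, SE, adjusted p = 0.0363, limma). Overlaps here are of whole gene spans, and shared exons were not examined. How far reads of CG5195 entered the value of mag, if the counting did not use strand, is not known.

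Markers of the midgut, where mag acts, moved in part alongside. Of 9 listed, 6 were measured, 0 rose and 4 fell, with a median log2 change of -0.64, and their summed level was 49873 to 62990 normalized counts in mutant and 67202 to 71137 in control libraries. The shares called over all genes were 4.73% higher and 9.47% lower. The trypsins alphaTry and betaTry changed by -0.07 ± 0.09 and 0.20 ± 0.09 (log2, SE) and did not pass the test, and Jon99Ciii, a serine peptidase, fell by 1.45 ± 0.22 (adjusted p = 0.00113, limma). The part of gut tissue in the changes of mag and CG8093 was not tested.

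CG5966 belongs to the neutral lipase family, related to mammalian pancreatic lipase. It had 310, 328 and 321 normalized counts in mutant libraries, against 495, 518 and 674 in control libraries. Control library 3 was the highest, and the mutant libraries lay close together. CG5966 (FBgn0029831, X, 5882844 to 5886677, dm3) fell by 0.80 ± 0.11 on the log2 scale (SE, adjusted p = 0.000714, limma), with means of 320 ± 9.04 in mutant and 562 ± 97.2 in control flies (SD, n = 3 each).

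Lip3, an acid lipase known to be induced by starvation, was scarcely expressed in either group. It had 22.5, 11.9 and 17.9 normalized counts in mutant and 10.7, 11.1 and 14.1 in control libraries, and the groups overlapped. The log2 difference was 0.48 ± 0.30 (SE), with a 95% interval of -0.18 to 1.14 and an adjusted p of 0.351 (limma). The difference was thus within the spread of the libraries. Lip3 (FBgn0023495, 3R, 9195961 to 9197626, dm3) overlaps CheA87a on the other strand by 108 bases. CheA87a had 292 ± 38.2 normalized counts in mutant and 248 ± 28.0 in control flies (SD, n = 3 each), many times the level of Lip3.

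The authors' deposited table gave the same directions. Its maximum likelihood log2 fold changes were 0.56 for bmm, -1.72 for Lsd-1, -0.57 for Lsd-2, -1.54 for CG8093, -1.54 for Lip4, -0.81 for CG5966 and -0.52 for mag, all with adjusted p-values under 0.05. For Lip3 the deposited table gave 0.55 with an adjusted p of 0.593. Among genes given an adjusted p there, 13.5% were under 0.05.

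Levels were set side by side per kilobase of exon, with exon lengths from a newer annotation (BDGP6). Each length joined the exons of all annotated transcripts of a gene, such as 4598 bases over 5 transcripts for Lsd-2 and 1960 over 4 for Lsd-1. Which transcripts were expressed was not examined, so the order between genes depends on these lengths. In mutant flies the order by mean normalized count per kb was mag (974 ± 58.4), Lsd-2 (802 ± 62.9), bmm (784 ± 124), Lsd-1 (596 ± 45.5), CG8093 (369 ± 81.7), CG5966 (85.3 ± 2.41), Lip4 (75.0 ± 3.73) and Lip3 (12.2 ± 3.70), each with its SD over 3 libraries. Lsd-2 and bmm were the only neighbours in this order whose mutant libraries overlapped. In control flies the order was Lsd-1 (1959 ± 456), mag (1395 ± 232), Lsd-2 (1192 ± 106), CG8093 (1076 ± 92.3), bmm (531 ± 26.9), Lip4 (218 ± 49.5), CG5966 (150 ± 25.9) and Lip3 (8.34 ± 1.30). There the libraries of Lsd-1 and mag, of mag and Lsd-2, of Lsd-2 and CG8093, and of Lip4 and CG5966 overlapped. With these lengths Lsd-1 had the highest mean level per kb of the 8 genes in controls and stood below mag, Lsd-2 and bmm in mutants. By counts without length, Lsd-2 (mean 5483) stood above Lsd-1 (mean 3839) in controls.

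**Figure D3:**
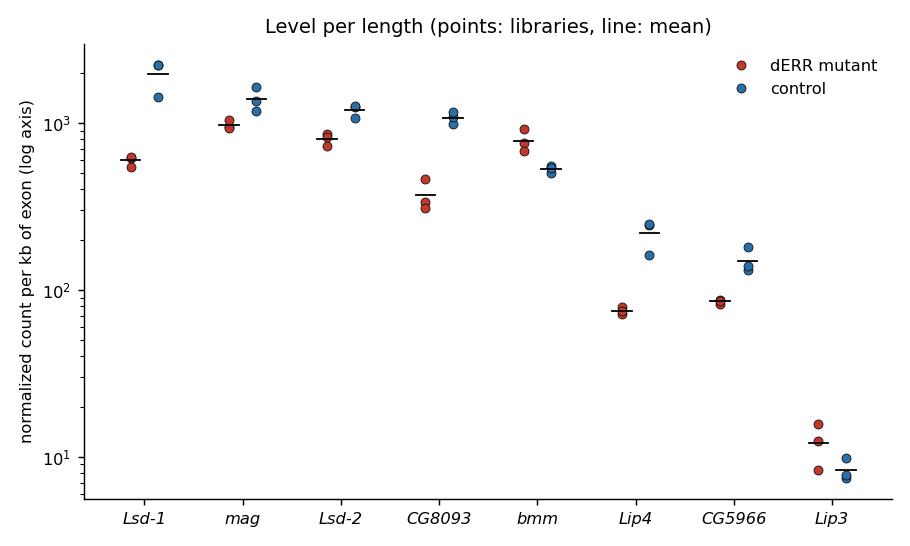
Normalized count per kb of exon (vertical log axis) for the 8 genes, ordered by the control mean, with one point per dERR mutant or control library and a line for each mean. The mean of Lsd-1 is 596 in mutant and 1959 in control flies, and that of bmm is 784 and 531.

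Genes with the most similar profile over the 6 libraries were sought among the 10080 other genes with a mean of at least 100 normalized counts, by the root mean square difference of log2 deviations from each gene's own mean. This measure includes the difference between mutant and control, so genes with a similar change rank close by construction. For Lsd-1 the closest was Lip4 (0.12), itself a gene of this set, followed by Npc2h (0.14) and CG3609 (0.16). For bmm the closest were CG42568 and DnaJ-60 (0.06 each) and CG12576 (0.07). CG42568 and DnaJ-60 had identical values in each library, so they count as 1 measurement.

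Other proteins of the lipid droplet changed in both directions. Of the 9 further droplet genes, all measured, 2 rose, 4 fell and 3 did not pass, with a median log2 change of -0.08. The shares over all genes were 4.73% higher and 9.47% lower. The fall was largest for dob (doppelganger von brummer), the close relative of bmm, with 90.0, 72.6 and 92.6 normalized counts in mutant and 265, 176 and 251 in control libraries. The change of dob was -1.41 ± 0.16 (log2, SE, adjusted p = 0.000175, limma), opposite in sign to that of bmm. Jabba, a droplet protein listed as CG42351, had 339, 513 and 484 normalized counts in mutant libraries, against 1088, 701 and 1203 in control libraries, and fell by 1.15 ± 0.20 (log2, SE, adjusted p = 0.00242, limma). The call of Jabba held under all 14 alternative settings, but only narrowly with a robust variance prior (adjusted p = 0.0474, limma). For dob and Jabba, as for Lsd-1 and Lip4, control library 2 was the lowest control, and in none of these 4 genes did the groups overlap.

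Ldsdh1, a short-chain dehydrogenase found on droplets, fell by 0.68 ± 0.13 and Seipin, a protein of droplet formation, fell by 0.49 ± 0.12 (log2, SE, adjusted p = 0.00367 and 0.0188, limma). Seipin no longer passed when mutant replicate 3, control replicate 1 or control replicate 3 was left out, with limma adjusted p-values of 0.0768, 0.0846 and 0.0925 in that order. Cct1, an enzyme of phosphatidylcholine synthesis that binds growing droplets, had 3828, 5074 and 3854 normalized counts in mutant and 2725, 2402 and 2544 in control libraries, a rise of 0.72 ± 0.11 (log2, SE, adjusted p = 0.00100, limma). Pummelig (puml, listed as CG1882), the relative of the mammalian lipase partner CGI-58, rose by 0.32 ± 0.07 (log2, SE, adjusted p = 0.00921, limma). When ribosomal protein genes set the scale, puml changed by 0.14 (adjusted p = 0.294, limma). Fitm, sturkopf and klar had log2 changes of -0.08 each and did not pass.

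**Figure D4:**
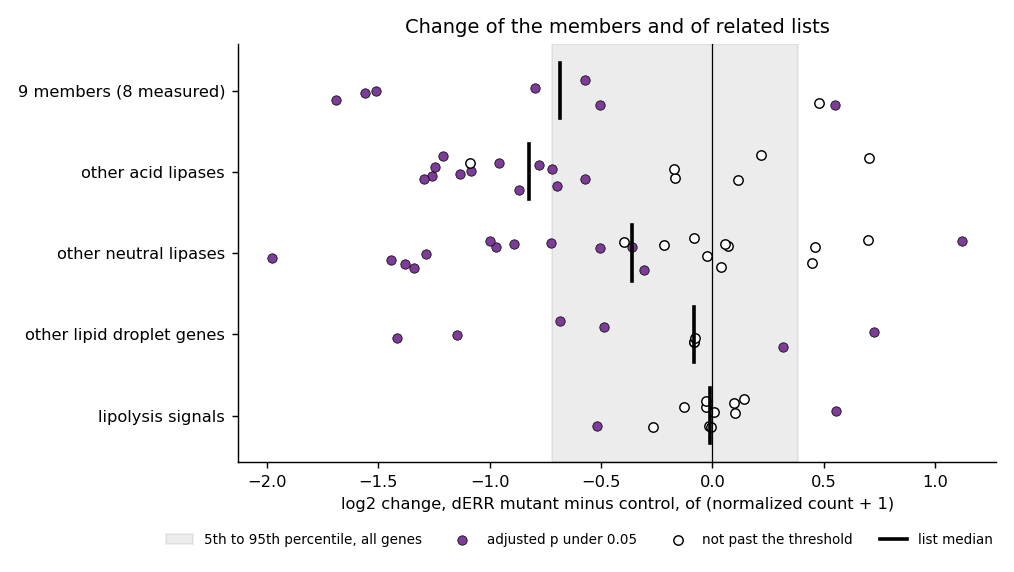
Log2 change, dERR mutant minus control, of the 8 measured genes and of 4 related lists (filled points passed an adjusted p of 0.05, open points did not, thick lines are list medians, the grey band holds the middle 90% of all genes). The median is -0.82 for other acid lipases and -0.36 for other neutral lipases, against -0.08 for other droplet genes and -0.01 for the signals of lipolysis.

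Falls in the acid lipase family went beyond CG8093, Lip4 and mag but did not reach all its genes. The log2 change was below 0 in 15 of 18 further members and above 0 in 3. At the threshold, 0 of these 18 rose, 12 fell and 6 did not pass, with a median log2 change of -0.82. Among all genes 4.73% were called higher and 9.47% lower. The most abundant, CG17097, had 31480, 22396 and 26871 normalized counts in mutant and 65272, 63218 and 63049 in control libraries, and it fell by 1.26 ± 0.12 (log2, SE, adjusted p = 5.69e-05, limma). CG18284 fell by 1.08 ± 0.09 (adjusted p = 1.83e-05, limma), CG18301 fell by 1.13 ± 0.10 (adjusted p = 2.08e-05, limma) and CG11608 fell by 0.87 ± 0.09 (adjusted p = 5.78e-05, limma). CG17097 and CG18284 are known as seminal fluid proteins. All 4 accessory gland markers listed fell too, with a median of -1.35 and a summed level of 19751 to 23665 normalized counts in mutant and 52591 to 60965 in control libraries. The part of that gland in the changes of the acid lipases, and of the neutral lipases described next, was not tested.

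In the neutral lipase family 23 of 28 further genes were measured, of which 1 rose, 12 fell and 10 did not pass. Beside this, 4.73% of all genes were called higher and 9.47% lower. CG18258 fell by 1.44 ± 0.09 (log2, SE, adjusted p = 1.91e-06, limma) and CG5162 fell by 1.34 ± 0.10 (adjusted p = 8.29e-06, limma). CG6296 had 38.2, 25.9 and 19.9 normalized counts in mutant libraries, against 113, 104 and 111 in control libraries, and fell by 1.98 ± 0.21 (adjusted p = 0.000103, limma). CG14034 fell by 1.00 ± 0.12 (adjusted p = 0.000183, limma). The single rise was that of CG31683, with 30.3, 28.8 and 40.8 normalized counts in mutant and 11.7, 17.6 and 15.1 in control libraries, a log2 change of 1.12 ± 0.24 (adjusted p = 0.00975, limma) that lost its call without mutant replicate 3 (adjusted p = 0.0545, limma). Abundant genes of this family differed among themselves. CG6295, the most abundant after CG5162 in controls, changed by 0.07 ± 0.07 (log2, SE) and did not pass, while CG6277 fell by 0.72 ± 0.11 (adjusted p = 0.000867, limma).

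Of 12 genes that carry or receive signals for lipolysis, 1 rose, 1 fell and 10 did not pass, close to the 14.2% called over all genes. Their median log2 change was -0.01. The AKH receptor, AkhR (listed as GRHR), had 356, 288 and 331 normalized counts in mutant and 537, 371 and 502 in control libraries, and fell by 0.52 ± 0.14 (log2, SE, adjusted p = 0.0273, limma). The insulin receptor InR had 669, 462 and 684 normalized counts in mutant libraries, against 475, 374 and 377 in control libraries, so that the groups overlapped, and rose by 0.55 ± 0.15 (log2, SE, adjusted p = 0.0312, limma). Neither call was stable: AkhR lost it in 4 of the 6 fits with 1 library left out, with limma adjusted p-values up to 0.120, and InR in 4 of the 6, up to 0.127, and with ribosomal protein genes as the scale (log2 change 0.38, adjusted p = 0.120, limma). The hormone gene Akh changed by 0.01 ± 0.11, foxo, a transcription factor known to act on bmm, by 0.10 ± 0.08, and Hr96 by -0.02 ± 0.08 (log2, SE), and none of the 3 passed.

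Markers of the fat body, where most droplets lie, were uneven. Of 5 listed, 3 were measured. The lipophorin precursor Rfabg fell by 1.94 ± 0.12 (log2, SE, adjusted p = 3.08e-06, limma) and AkhR fell as given above, while the fatty acid synthase CG3523 changed by 0.03 ± 0.14 and did not pass. Their summed level was 39514 to 52110 normalized counts in mutant and 64480 to 78316 in control libraries. Of the oenocyte markers, Cyp4g1 fell by 0.56 ± 0.15 and CG18609 rose by 0.80 ± 0.12 (log2, SE, adjusted p = 0.0308 and 0.000932, limma), with summed levels of 282492 to 331325 in mutant and 424950 to 456892 in control libraries. All 3 markers of indirect flight muscle rose (Act88F, TpnC4 and fln, median log2 change 1.81), with summed levels of 14283 to 15202 normalized counts in mutant and 3937 to 4988 in control libraries. Beside these marker calls, 4.73% of all genes were called higher and 9.47% lower. The part of fat body, oenocyte or muscle mass in the changes of the perilipins and lipases was not tested.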

How the data were processed

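Gene lists and the genes described were chosen with earlier results of these data known. Per the labels' protocols, stranded poly(A) libraries were made, and the submitters' processing notes name Novoalign, DESeq2 and dm3. For the counting step, the sources used here do not give the tool, strand use or annotation. The authors deposited normalized counts, a signal that per the values is read counts over a library's own size factor. Per the file headers the authors also deposited DESeq2's log2 fold change with its standard error, a test statistic (a score) and p-values, which were copied unchanged.

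In each column 100% of values were whole multiples of a step (tolerance 1e-04). In 3 columns the step was close to 1 (0.994 and 0.995 in mutant libraries 2 and 3, 1.007 in control library 3). The rule used did not accept recovered reads for such columns, although their values were whole multiples of the step. No count model was therefore fitted, and read totals are conditional on that step. Log2(normalized count + 1) was tested with limma 3.58.1 (R 4.3.3), trended variance, group term, no filter and Benjamini-Hochberg adjustment over 13035 genes. On simulated data for mutant against control with that many genes, the fit recovered 61 of 67 genes at a 1.5-fold change, 67 of 67 at 2-fold and 66 of 66 at 4-fold, and 7 of 201 calls were false. The simulation gave every gene the same dispersion, a median from the control libraries, and placed changes only in genes above a minimum mean. Spread in the real data differs between genes, so recovery and false calls may be worse there. The log2 scale with + 1 understates changes of genes with few reads. The ratio of Lsd-1 to Lsd-2 was tested with an exact permutation test. Strands and exon lengths came from a BDGP6 annotation by gene identifier. Genes named are the 8 measured, ERR, and up to 4 per direction of each list by adjusted p; other list genes and markers given with values were added after those were seen. Alternatives were pseudocounts of 0.5 and 5, a filter at a mean of 5, 4 other scalings, a robust prior and leaving out each library. Promoter and protein sequences were not used here.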

Additional observations from a re-analysis of the deposited data

How the results depend on the processing

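The counts of 1 higher and 6 lower among the 8 genes held under all 14 alternative settings, and each gene kept its direction and its side of the threshold. The log2 change ranged from 0.37 to 0.65 for bmm, -1.90 to -1.58 for Lsd-1, -0.75 to -0.49 for Lsd-2, -0.68 to -0.38 for mag and 0.28 to 0.71 for Lip3, which never passed. The highest adjusted p was 0.0385 for bmm and 0.0383 for mag (limma). Scaling to ribosomal protein genes gave a median log2 change of -0.17 over all genes. With it 188 genes were called higher and 2278 lower among all genes, 1 droplet gene was called higher, and 0 signal genes were called higher and 3 lower. Scaling to library size gave 1293 higher calls among all genes and 2 among neutral lipases. Leaving out 1 library gave 330 (without control replicate 3) to 563 higher calls and 926 to 1139 lower calls among all genes, with 382 higher without mutant replicate 3. Neutral lipases called higher then ran from 0 to 1 and lower from 8 to 10, and acid lipases called lower from 9 to 12. Signal genes called higher ran from 0 to 1 and lower from 0 to 1. InR lost its call without mutant replicate 1, mutant replicate 3, control replicate 2 or control replicate 3 (adjusted p up to 0.127), and AkhR without mutant replicate 2, mutant replicate 3, control replicate 1 or control replicate 3 (adjusted p up to 0.120, limma). The cause was not tested. The Lsd-1 to Lsd-2 difference ran from -1.25 to -1.05 and the bmm to Lsd-1 difference from 2.09 to 2.48. Lip3 had the lowest counts of the 8 genes and the widest standard error. No paired analysis was possible because no label ties a mutant library to a control library.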
